A study of Mus musculus with 7 samples.

Results

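Core and linker histone genes were followed on 7 arrays of mouse hematopoietic stem cells, the rare marrow cells from which every blood lineage is renewed. The genes were taken from the platform annotation: rows naming exactly 1 gene whose symbol started Hist1h, Hist2h, Hist3h or Hist4h, or the newer forms H2ac, H2bc, H3c, H4c and H1f. Linker genes with an H1f symbol entered only where the reference gene table also gave them an older Hist name. This gave 26 genes, on 27 probe sets, of 22180 genes with a probe set naming 1 symbol. Where a gene had more than 1 probe set, the one with the highest mean log2(intensity + 1) over all arrays stood for it. The genes comprised 5 of class H1, 6 of H2A, 8 of H2B and 7 of H4; no H3 gene had a probe set of its own.

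The labels gave 2 groups. One held 3 arrays of cells from Ahr knockout mice (Ahr-KO) and the other 4 arrays of cells from mice with wild-type Ahr (WT), both on the C57BL/6J background and aged 8 weeks. Ahr encodes the aryl hydrocarbon receptor, a ligand-activated transcription factor, and the comparison asked how its loss affected stem cell transcripts. In both groups the marrow had been depleted of lineage-positive cells and the stem cells isolated by SLAM surface markers. The labels do not state the knockout allele, nor whether arrays stand for separate mice or pools. The p-values therefore cover array-to-array spread alone, and that spread may be technical.

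Replication-dependent histone genes lie in clusters and are transcribed mainly in S phase, when newly copied DNA must be packaged. H2A, H2B, H3 and H4 form the protein core around which DNA is wrapped, and the linker histone H1 binds where DNA enters and leaves it. Their transcripts end in a conserved stem-loop bound by the protein SLBP in place of a poly(A) tail. Most adult stem cells of the marrow rest outside the cell cycle. In bulk samples such as these, fewer cycling cells and less histone RNA per cell cannot be told apart.

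Promoter stretches are shown for 8 of these genes because the classes differ in the motifs that lie there. RefSeq promoter windows of build GRCm38.p6, each with 250 bases before and 50 after the start site, were matched for 24 of the 26 genes. The 130 bases before the start site are printed 5′ to 3′ on the gene's strand. Capitals mark TATAAA, the TATA box; CCAAT, bound by the factor NF-Y; ATTTGCAT, the octamer bound by Oct-1; and AAACACA, the AC box of H1 promoters, each on either strand, so that ATTGG is CCAAT read on the opposite one.
H1f5 promoter, chr13:21780626-21780755, minus strand: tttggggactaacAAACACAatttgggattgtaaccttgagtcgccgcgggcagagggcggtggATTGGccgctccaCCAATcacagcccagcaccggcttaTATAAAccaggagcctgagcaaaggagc
H1f2 promoter, chr13:23738677-23738806, plus strand: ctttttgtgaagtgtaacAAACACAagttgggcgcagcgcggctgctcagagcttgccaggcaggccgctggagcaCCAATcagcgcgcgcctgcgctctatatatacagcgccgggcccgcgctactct
H1f3 promoter, chr13:23554902-23555031, plus strand: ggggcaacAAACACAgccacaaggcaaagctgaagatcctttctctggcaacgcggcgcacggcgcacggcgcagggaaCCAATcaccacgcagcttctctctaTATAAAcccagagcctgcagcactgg
H2bc14 promoter, chr13:21721914-21722043, plus strand: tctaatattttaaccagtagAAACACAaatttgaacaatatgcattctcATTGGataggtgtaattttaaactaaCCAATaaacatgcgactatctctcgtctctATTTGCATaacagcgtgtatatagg
H2bc12 promoter, chr13:22035691-22035820, plus strand: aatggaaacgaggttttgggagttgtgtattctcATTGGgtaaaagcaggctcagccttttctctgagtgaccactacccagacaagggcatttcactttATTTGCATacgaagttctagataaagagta
H2bc18 promoter, chr3:96269570-96269699, plus strand: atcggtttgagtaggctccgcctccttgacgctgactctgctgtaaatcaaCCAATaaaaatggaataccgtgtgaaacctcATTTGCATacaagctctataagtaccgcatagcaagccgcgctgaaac
H4c12 promoter, chr13:21750554-21750683, minus strand: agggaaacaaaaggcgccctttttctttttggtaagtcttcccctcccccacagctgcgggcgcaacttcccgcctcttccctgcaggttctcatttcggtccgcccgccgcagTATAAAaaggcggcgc
H4c1 promoter, chr13:23761250-23761379, minus strand: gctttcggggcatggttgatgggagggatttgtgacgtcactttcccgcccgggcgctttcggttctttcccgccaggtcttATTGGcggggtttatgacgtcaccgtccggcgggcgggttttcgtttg
The H1 stretches shown carried AAACACA upstream and CCAAT near the start site, and the H2B stretches shown carried ATTTGCAT close to it. The H2bc14 stretch carried AAACACA as well. The 8 genes were picked by hand, so these stretches do not stand for their classes. H1f1, whose window lacks AAACACA, and H2bc9 and H2bc22, whose windows lack ATTTGCAT, are not shown.

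Motif content differed by class in the full windows, which were searched on both strands with no overlap between matches of different motifs. CCAAT was present in 5 of 5 H1, 6 of 6 H2A and 7 of 7 H2B windows, and in 1 of 6 H4 windows, that of H4c1; of all 32851 promoter windows of the same length, 37.4% held it. ATTTGCAT was present in 5 of 7 H2B and 3 of 6 H2A windows and in no H1 or H4 window, against 1.74% of all windows. The genes H2ac12 and H2ac1, with the octamer, stand head to head with the H2B genes H2bc12 and H2bc1, so their windows overlap. AAACACA was present in 4 of 5 H1 windows, beginning at bases -122 to -112 from the start site, against 7.18% of all windows. It was also present in 2 of 7 H2B and 1 of 6 H2A windows and in 0 of 6 H4 windows. In H2bc14 it began at base -110, close to its place in the H1 windows. TATAAA was found in 16 of 24 windows, against 13.6% of all. Its matches began from base -212 in H2bc22 to base 42 in H4c1, so some lay far upstream or after the start site. GCGTG, the core of the sequence bound by the aryl hydrocarbon receptor, was found in 8 of 24 windows, or 33.3%, against 32.4% of all windows. A match is a description of letters and not a binding site.

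The probe set of Ahr itself did not separate the groups. Its intensities were 34.1, 137 and 26.4 on the arrays labelled Ahr-KO and 31.3, 57.9, 14.9 and 20.5 on those labelled WT, a log2 difference of 0.84 ± 0.73 (SE). Replicate 2 of each label exceeded the background mark described next, and the other 5 arrays did not. The labels do not place this probe set relative to the deleted part of the gene, so its signal does not check the genotype labels. Ahr-KO and WT therefore mean the libraries so labelled, and every direction given here rests on those labels.

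The arrays had uneven signal over all genes. Median intensity ran from 16.9 to 22.1, and between 30.7 and 44.9% of the 25335 probe sets tested lay above a background mark on an array. That mark was taken per array as the 95th percentile over 1108 probe sets for olfactory receptors, genes not expected in marrow, at an intensity of 33.8 to 42.8. WT replicate 2 had the smallest share above it. Of 6 stem cell markers measured, Kit, Hlf and Gata2 lay above the mark on 7 arrays, Procr and Mecom on 6 and Slamf1 on 4. For Slamf1 these were 3 Ahr-KO arrays and 1 WT array. Slamf1 differed by 2.58 ± 0.97 log2 units, Ahr-KO minus WT (SE; limma adjusted p = 0.963, unadjusted p = 0.0288). On dropping single arrays its unadjusted limma p rose as far as 0.107. Among the 6 markers 2 had higher and 4 lower means in Ahr-KO. Of 9 granulocyte and monocyte markers, 9 had higher log2 means in Ahr-KO with all arrays and 6 without WT replicate 1, where S100a8, S100a9 and Ngp were lower. Their mean log2 level ran from 8.80 to 10.5 in Ahr-KO and from 5.64 to 10.6 in WT. The 4 T and NK cell markers ran from 5.29 to 7.05 in Ahr-KO and from 4.88 to 5.36 in WT, and the 3 B cell markers from 4.14 to 4.26 and from 4.00 to 5.24. Log2 differences were 1.34 for Nkg7 and 2.21 for Klrd1, above the mark on 1 array, but 0.37 for Cd3e and 0.28 for Cd3g. Means were higher in Ahr-KO for 3 of 4 mast cell and basophil, 2 of 3 erythroid, 2 of 3 megakaryocyte and 2 of 5 stromal markers. The part of these other cell types in the histone values was not tested.

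Of the 26 histone genes, 9 exceeded the mark on all 7 arrays, or 34.6%, against 14.4% of all probe sets tested. Another 9 exceeded it on some arrays, and 8 on none. Intensities of different probe sets do not compare transcript amounts, so levels are compared only within a gene. The plot of every gene on every array shows this division, with H1f5, H2ac10, H2ac21 and H4c12 among the genes well above the mark.

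**Figure D1:**
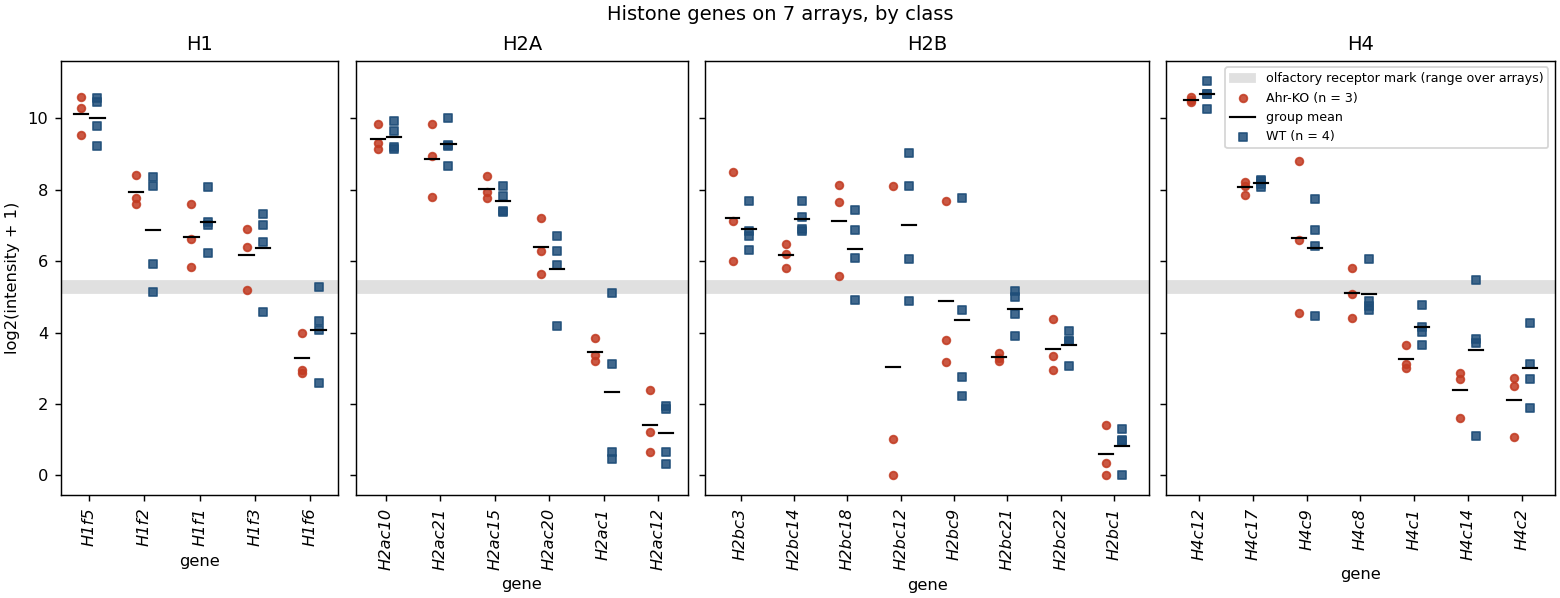
Level of the 26 histone genes on each array, as log2(intensity + 1), in 4 panels by class; circles are the 3 Ahr-KO arrays, squares the 4 WT arrays, short bars the group means, and the grey band the range of the olfactory receptor mark over arrays. The 2 groups separate for H2bc14, H2bc21 and H4c1 alone, each lower in Ahr-KO.

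No histone gene passed an adjusted p of 0.05 (limma, Benjamini-Hochberg over 25335 probe sets), where the same threshold called 0% of all probe sets. Adjusted p-values of the 26 genes ran from 0.963 to 0.999. At an unadjusted p under 0.05 there was 1 gene, H2bc21, which was lower in Ahr-KO. That was 3.85% of the genes, against 4.21% of all probe sets in either direction and 2.22% in that direction. Means were higher in Ahr-KO for 11 genes and lower for 15, or 57.7%, against 51.7% of all probe sets. The median log2 difference, Ahr-KO minus WT, was -0.12, beside -0.03 for all probe sets tested. Groups did not overlap for 3 genes, or 11.5%, and for 5.74% of all probe sets; the 3 genes were lower in Ahr-KO, as were 3.13% of all probe sets.

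The class medians were small and moved with single arrays. The median log2 difference was -0.19 for the 5 H1 genes, 0.29 for the 6 H2A genes, -0.17 for the 8 H2B genes and -0.16 for the 7 H4 genes. Values were lower in Ahr-KO for 3 of 5 H1, 2 of 6 H2A, 5 of 8 H2B and 5 of 7 H4 genes. Leaving out 1 array at a time, the medians ran from -0.56 (without Ahr-KO replicate 2) to 0.13 (without WT replicate 3) for H1 and from 0.07 (without WT replicate 2) to 0.49 (without WT replicate 1) for H2A. They ran from -0.60 (without Ahr-KO replicate 2) to 0.03 (without Ahr-KO replicate 3) for H2B and from -0.38 (without Ahr-KO replicate 3) to -0.10 (without WT replicate 3) for H4. Of the genes on chromosome 13, 12 of 21 were lower, and on chromosome 3, 3 of 5. The intervals were wide: for none of the 26 genes did the 95% interval lie wholly within 1 log2 unit of 0.

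**Figure D2:**
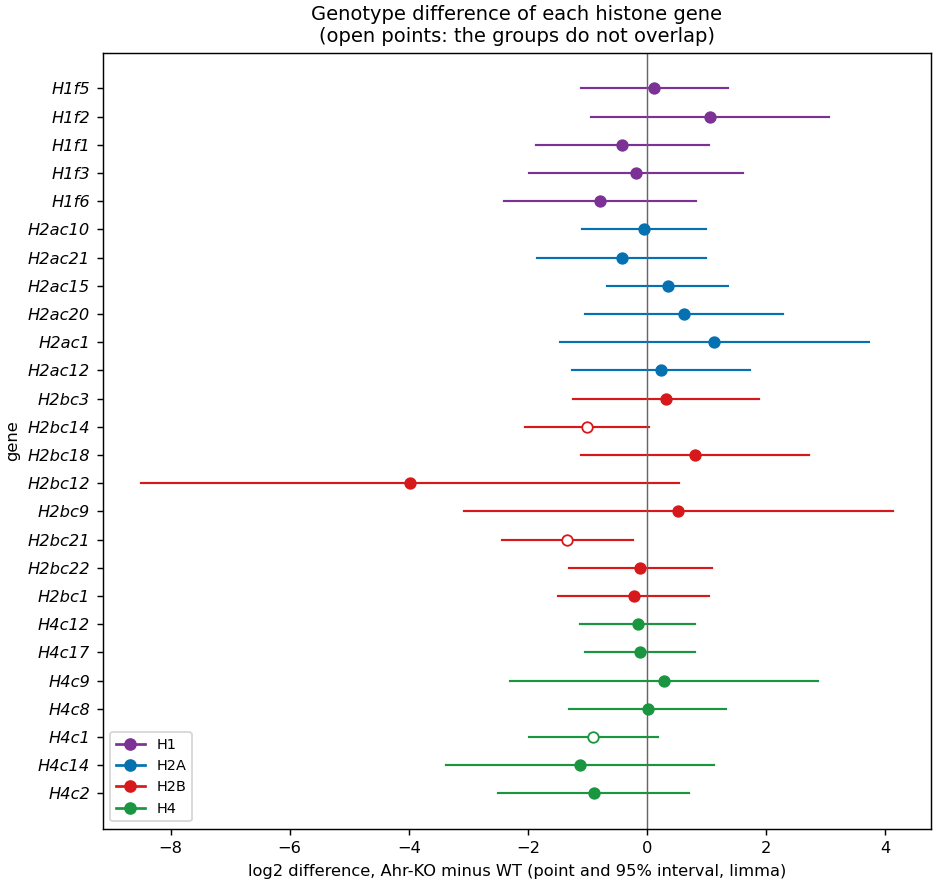
Log2 difference, Ahr-KO minus WT, of each histone gene (point) with its 95% interval from limma (line), coloured by class and ordered within class by mean level. Open points mark the 3 genes whose groups did not overlap, and 25 of the 26 intervals include 0.

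The linker histones H1 compact chromatin between nucleosomes, and the somatic subtypes are encoded by separate genes. H1f5 (older symbol Hist1h1b, probe set 17291005), which encodes subtype H1.5, had intensities of 1544, 1245 and 740 for Ahr-KO and 1524, 598, 1410 and 890 for WT. The groups covered nearly the same range, with WT replicate 2 lowest. The log2 difference was 0.12 ± 0.53 (SE), with a 95% interval from -1.11 to 1.35, and was below 0 without Ahr-KO replicate 1 (-0.11) or WT replicate 2 (-0.14).

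H1f2 (Hist1h1c, 17285859), for subtype H1.2, stood at 194, 218 and 339 for Ahr-KO and 326, 59.8, 34 and 277 for WT. WT replicates 2 and 3 were low and the other WT arrays lay within the Ahr-KO range. The log2 difference was 1.05 ± 0.86 (SE), and 0.47 without WT replicate 3. H1f1 (Hist1h1a, 17285879) stood at 56.1, 194 and 97.3 against 128, 269, 73.8 and 136, with overlapping groups and a difference of -0.41 ± 0.63 (SE). It was 0.011 without Ahr-KO replicate 1 and -0.87 without Ahr-KO replicate 2.

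H1f3 (Hist1h1d, 17285829), for subtype H1.3, ran from 35.8 to 119 in Ahr-KO and from 22.7 to 159 in WT, so the WT range enclosed that of Ahr-KO. H1f6 (Hist1h1t, 17285855) encodes the linker histone of the testis and lay below the mark on every array, at 5.05 to 38.1. Its log2 difference was -0.79 ± 0.70 (SE).

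H2A and H2B pair as a dimer in the nucleosome. Among the H2A genes, H2ac10 (Hist1h2af, 17285819) had intensities of 634, 916 and 560 for Ahr-KO and 967, 802, 567 and 588 for WT. Every array lay well above the mark and the groups overlapped almost fully. The log2 difference was -0.05 ± 0.45 (SE), with a 95% interval from -1.09 to 0.99, and it was above 0 after median centring (0.019), with array weights (0.021) and on leaving out any 1 of 4 arrays.

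H2ac21 (Hist2h2ab, 17408008) stood at 493, 921 and 220 for Ahr-KO and 1025, 594, 617 and 402 for WT. Ahr-KO replicate 3 was the lowest array; without it the difference of -0.42 ± 0.61 (SE) became 0.11. This was the single gene with another probe set, which differed by -1.13 on the log2 scale and was also lowest on Ahr-KO replicate 3, at 103. H2ac15 (Hist1h2ak, 17291001) stood at 242, 335 and 218 against 276, 165, 169 and 227, a difference of 0.35 ± 0.44 (SE).

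H2ac20 (Hist2h2ac, 17408011) stood at 148, 77.7 and 48.9 for Ahr-KO and 104, 17.2, 77.3 and 58.2 for WT, where WT replicate 2 alone fell below the mark. The difference was 0.62 ± 0.72 (SE), and 0.09 without that array. H2ac1 (Hist1h2aa, 17285938), which encodes the testis form of H2A, lay below the mark on every array, with 13.3, 9.40 and 8.14 for Ahr-KO and 33.6, 7.78, 0.56 and 0.37 for WT. Its difference of 1.13 ± 1.12 (SE) fell to 0.14 with a pseudocount of 16 in place of 1. H2ac12 (Hist1h2ah, 17291049) did not exceed 4.25 on any array.

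The H2B genes held 2 of the 3 genes whose groups did not overlap. H2bc14 (Hist1h2bm, 17285683) had intensities of 55.5, 89.2 and 72.7 for Ahr-KO and 206, 120, 149 and 115 for WT. All 7 values lay above the mark, and the highest Ahr-KO array was below the lowest WT array. The group means were 72.5 ± 16.8 (SD, n = 3) and 147 ± 42.1 (SD, n = 4), with a log2 difference of -1.0 ± 0.45 (SE; limma adjusted p = 0.963).

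Its unadjusted limma p was 0.0572, and it fell to 0.0165 with a pseudocount of 16 and to 0.0496 after a filter on dim probe sets. The unadjusted limma p was 0.0641 with array weights, 0.0751 after quantile normalization and 0.0818 after median centring. Leaving out single arrays gave differences from -1.16 to -0.82, with an unadjusted limma p from 0.0617 to 0.154. H2bc14 was also named in brighter rows that list 12 H2B genes (17285691 and 17285710). Those rows differed by -0.09 ± 0.43 and 0.03 ± 0.45 (SE), and their signal cannot be assigned to single genes. The promoter of H2bc14 printed above holds the octamer and CCAAT boxes, as do those of the H2B genes H2bc12, H2bc18, H2bc3 and H2bc1, whose differences went in either direction.

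H2bc21 (Hist2h2be, 17400541) stood at 8.84, 8.25 and 9.75 for Ahr-KO and 35.1, 14, 21.8 and 31.1 for WT. Every value lay below the mark, so a difference between near-background signals is all that was measured. Ahr-KO minus WT came to -1.34 ± 0.48 on the log2 scale (SE; limma adjusted p = 0.963, unadjusted p = 0.023), and -0.70 with a pseudocount of 16. The unadjusted limma p rose to 0.0516 when Ahr-KO replicate 1 was left out and to 0.0617 when Ahr-KO replicate 2 was. Leaving out WT replicate 1 gave 0.0571 by limma, and leaving out WT replicate 4 gave 0.0572.

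H2bc12 (Hist1h2bk, 17285742) had the difference of greatest size among the 26 genes and the greatest spread. Intensities were 0.01, 274 and 1.01 for Ahr-KO and 28.7, 273, 527 and 65.5 for WT. Ahr-KO replicate 2 and WT replicate 2 were nearly equal, while the other Ahr-KO arrays were near 0. Ahr-KO minus WT came to -3.98 ± 1.96 on the log2 scale (SE; limma adjusted p = 0.963, unadjusted p = 0.0767). It was -6.51 without Ahr-KO replicate 2, -2.47 without Ahr-KO replicate 1 and -1.85 with a pseudocount of 16. H2bc9 (Hist1h2bh, 17291177) was likewise high on single arrays: 204 on Ahr-KO replicate 2 and 217 on WT replicate 2, and from 3.70 to 23.9 on the others. Like H2bc14, H2bc12 and H2bc9 were also named in the rows listing 12 H2B genes (17285691 and 17285710), which differed by -0.09 and 0.03.

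H2bc3 (Hist1h2bb, 17285863) lay above the mark on every array, with 139, 358 and 62.8 for Ahr-KO and 205, 114, 103 and 79.2 for WT. Its difference was 0.31 ± 0.68 (SE), and -0.33 without Ahr-KO replicate 2, its highest array. H2bc18 (Hist2h2bb, 17400562) stood at 47.3, 202 and 282 against 173, 29.4, 67.4 and 115, a difference of 0.81 ± 0.83 (SE), or 1.58 without Ahr-KO replicate 1 and 0.30 without Ahr-KO replicate 3. H2bc22 (Hist1h2bp) and H2bc1 (Hist1h2ba), the latter the testis form of H2B, lay below the mark on every array, H2bc1 at 1.64 or less.

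All H4 genes encode the same or nearly the same core protein. H4c12 (Hist1h4k, 17290999) had intensities of 1407, 1545 and 1460 for Ahr-KO and 1662, 1661, 2127 and 1232 for WT. The Ahr-KO arrays lay within 1 narrow range and WT replicate 4 fell below them. The group means were 1471 ± 69.8 (SD, n = 3) and 1670 ± 366 (SD, n = 4), a log2 difference of -0.16 ± 0.42 (SE; 95% interval -1.13 to 0.81), and -0.30 without WT replicate 4. H4c17 (17285687) varied least of the 26 genes, from 233 to 299 in Ahr-KO and from 268 to 308 in WT, with a difference of -0.12 ± 0.40 (SE). The SE comes from a moderated variance and exceeds that gene's own spread.

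H4c9 (Hist1h4i, 17291053) stood at 22.5, 95.8 and 447 for Ahr-KO and 21, 84.6, 213 and 116 for WT, so each group ran from below the mark to well above it. Its difference was 0.28 ± 1.12 (SE), and -0.80 without Ahr-KO replicate 3. H4c8 (Hist1h4h) ran from 20.2 to 66.4 over all arrays with a difference of 0.01 ± 0.57 (SE). H4c1 (Hist1h4a, 17291229) was the remaining gene without overlap, at 7.72, 7.03 and 11.48 for Ahr-KO and 11.53, 26.5, 17.0 and 15.3 for WT.

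All H4c1 values lay below the mark, the groups were separated by 11.48 against 11.53, and they overlapped after median centring and after quantile normalization. The log2 difference of H4c1 was -0.90 ± 0.47 (SE; limma adjusted p = 0.963). H4c14 (Hist2h4) exceeded the mark on WT replicate 4 alone, at 43.4; its difference of -1.12 became -0.47 without that array. H4c2 (Hist1h4b), next to H4c1 on chromosome 13, stayed at or below 18.1 with a difference of -0.90 ± 0.70 (SE).

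Neighbouring genes were set side by side because H2A and H2B genes often stand head to head over a shared promoter. The gene table placed H2ac12 next to H2bc12, H2bc1 next to H2ac1 and H2ac20 next to H2bc21. By strand, H2ac12 and H2bc12 stood head to head, as did H2bc1 and H2ac1. In each pair the differences had opposite signs: 0.24 and -3.98, -0.22 and 1.13, and 0.62 and -1.34. At least 1 gene of each pair lay below the mark on every array, so these pairs give no measure of shared change. Of 8 neighbouring pairs among the 26 genes, 1 pair, H4c2 and H4c1, had the same sign.

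**Figure D3:**
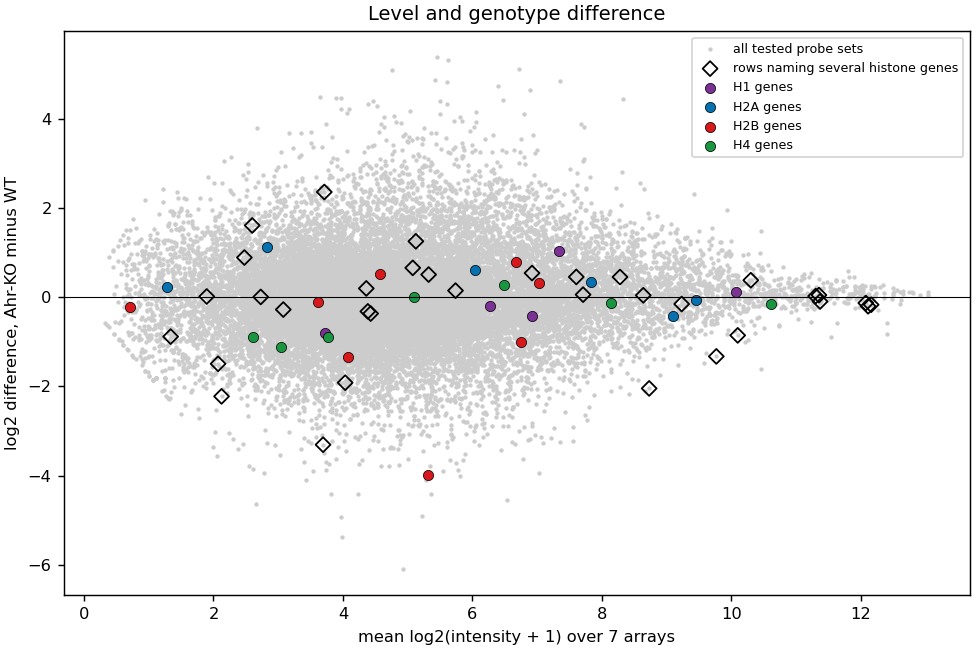
Log2 difference, Ahr-KO minus WT, against mean log2(intensity + 1) over 7 arrays, for all 25335 probe sets tested (grey), the 26 histone genes (coloured by class) and the 34 distinct rows that name several histone genes (diamonds). The histone genes lie within the grey cloud, and H2bc12 at -3.98 is the lowest of them.

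Most of the histone repertoire was read only by rows that name several genes. The reference table held 63 protein-coding genes by the same symbols; 26 had a row of their own and 37, among them all 12 H3 genes, were named only in rows that list several genes, mostly of one class. H1f4 shared its row with H2B genes. Some of the 26 genes, among them H2bc14, H4c1 and H2ac12, were named in rows of several genes as well as in their own. There were 37 such rows, of which 3 pairs held identical values on every array and were counted once each, leaving 34. Of these 34 rows, 16 lay above the mark on all 7 arrays, and 8 on none. None passed an adjusted p of 0.05 by limma; 2 had an unadjusted p under 0.05, each lower in Ahr-KO, as were 2.22% of all probe sets. The Ahr-KO mean was the higher for 18 and the lower for 16, with a median difference of 0.02.

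The brightest shared rows were steady across arrays. A row naming 4 H2B genes (17290997) stood at 3966, 4667 and 4245 for Ahr-KO and 5346, 4919, 4344 and 4641 for WT; the difference was -0.16 ± 0.40 (SE). A row naming 12 H2A genes (17291023) differed by -0.20 ± 0.41 (SE) and a row naming 6 H4 genes (17285706) by -0.13 ± 0.41 (SE). In these 3 rows the groups overlapped, and the 95% intervals ran no lower than -1.15 and no higher than 0.83.

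H3, whose tail carries many of the best known chromatin marks, was read by 12 shared rows, 3 of them above the mark on all arrays. A row naming 8 H3 genes (17400555) stood at 2487, 3094 and 2468 for Ahr-KO and 3581, 2537, 2252 and 2144 for WT, with a difference of 0.05 ± 0.43 (SE). A row naming H3c10, H3c1, H3c11 and H3c8 (17285680) was split within WT: 3812 and 2957 on replicates 1 and 4, 545 and 450 on replicates 2 and 3, and 479 to 561 in Ahr-KO. Its difference was -1.32 ± 0.85 (SE). Another row naming the same 4 genes (17291008) differed by 0.06 ± 0.48 (SE), so the rows did not share the split. These rows and the next were singled out after their values were seen.

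The shared row naming H2bc8, H2bc6 and H2bc4 (17285834) had the smallest unadjusted p among the shared rows. It stood at 108, 305 and 201 for Ahr-KO and 1474, 1089, 767 and 297 for WT. WT replicate 4 lay among the Ahr-KO arrays and the other WT arrays above them. Ahr-KO minus WT came to -2.04 ± 0.68 on the log2 scale (SE; limma adjusted p = 0.963, unadjusted p = 0.0169), with an unadjusted limma p of 0.0651 without Ahr-KO replicate 1. The other row naming the same 3 genes (17285851) differed by 0.15 ± 0.82 (SE). The second row with a small p named 10 H2A genes (17291186), lay above the mark on WT replicate 1 alone and had a difference of -3.31 ± 1.13 (SE). With a pseudocount of 16 this was -1.42. Its unadjusted limma p of 0.0191 became 0.0583 if Ahr-KO replicate 1 was left out and 0.0764 if Ahr-KO replicate 2 was.

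Spread between arrays of one genotype was small for most bright histone genes. For the 9 genes above the mark on every array, the median residual SD within genotype was 0.37 log2 units. In 8 of these 9 genes it was smaller than the median of all probe sets in the same decile of mean level. Choosing genes above the mark on every array itself favours a small spread, and the decile medians were not chosen so. Of the 9 genes above the mark on some arrays, 3 lay below their decile median, as did 6 of the 8 above it on none. H4c17 had a residual SD of 0.14 and H4c12 of 0.25, beside 0.73 for the brightest decile of all probe sets. H2bc12 and H2bc9 stood at 3.15 and 2.48. Of all 26 genes, 17 lay below the median for their decile.

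**Figure D4:**
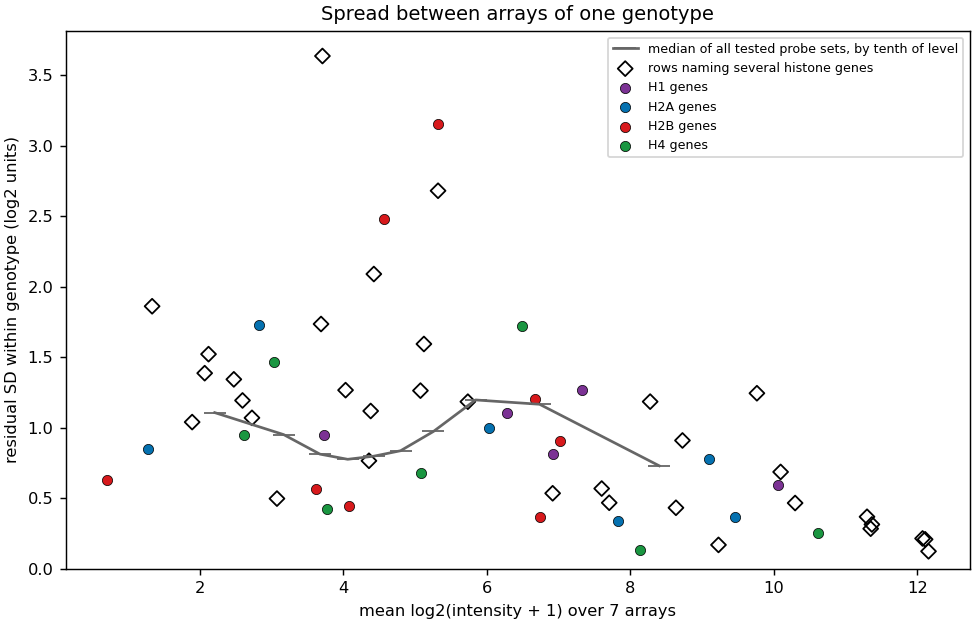
Residual SD within genotype in log2 units against mean log2(intensity + 1), for the 26 histone genes (coloured by class) and the 34 distinct shared rows (diamonds), with the median of all tested probe sets in each decile of level (line). Most bright histone rows lie below the line, while H2bc12 and H2bc9 lie far above it.

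Histone signal and the level of S-phase genes were set side by side by array. The 9 bright histone genes had mean log2 levels of 8.24, 8.82 and 7.98 for Ahr-KO and 8.87, 8.45, 8.42 and 8.26 for WT. The 29 S-phase genes measured, such as the replicative helicase genes Mcm4 and Mcm6, had 5.79, 7.27 and 6.39 for Ahr-KO and 7.12, 5.58, 6.54 and 7.24 for WT. S-phase genes were lowest on WT replicate 2, where the bright histone genes stood above their level on 4 other arrays. Among Ahr-KO arrays replicate 2 was highest for both sets.

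**Figure D5:**
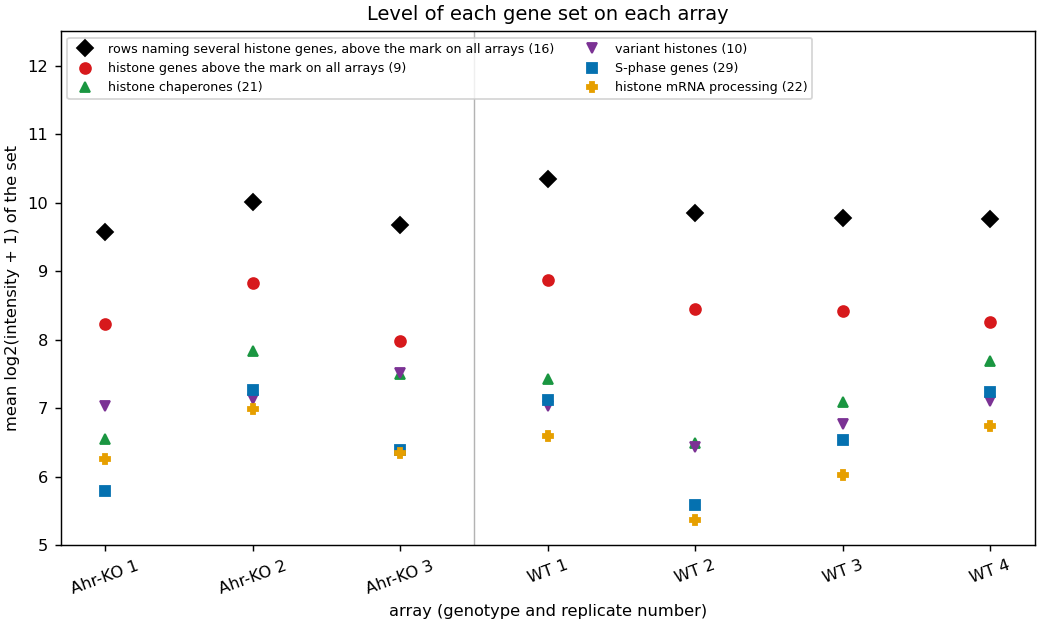
Mean log2(intensity + 1) of 6 gene sets on each of the 7 arrays, with the number of genes or rows in each set in the legend; each point is 1 array. Both histone sets shown hold only genes or rows above the mark on all arrays, whereas 7 of the 29 S-phase genes were; the 9 histone genes run from 7.98 to 8.87 and the S-phase genes from 5.58 to 7.27.

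Of the 29 S-phase genes, 13 had higher and 16 lower means in Ahr-KO, with a median log2 difference of -0.13 and 0 at an unadjusted limma p under 0.05, where 4.21% of all probe sets were. The helicase subunit gene Mcm4 stood at 160, 95.1 and 10.1 for Ahr-KO and 247, 340, 221 and 111 for WT, a difference of -1.94 ± 0.93 (SE), or -0.78 without Ahr-KO replicate 3. Top2a, the topoisomerase of dividing cells, differed by -1.26 ± 0.66 (SE). The replication clamp gene Pcna differed by 0.80 ± 0.51 (SE), and Mcm6 by 0.08 ± 0.67 (SE), or -0.33 without Ahr-KO replicate 1.

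Variant histones, most of which are made throughout the cell cycle from polyadenylated transcripts, were measured for 10 of 14 listed genes. Of these, 6 had the higher mean in Ahr-KO and 4 the lower, with a median difference of 0.29. H2aj, an H2A variant gene, had intensities of 884, 310 and 280 for Ahr-KO and 289, 89.9, 44.6 and 42.8 for WT, so WT replicate 1 lay within the Ahr-KO range. H2aj differed by 2.32 ± 0.80 (SE; limma adjusted p = 0.963, unadjusted p = 0.0199). The unadjusted limma p was 0.0777 if Ahr-KO replicate 1 was left out, 0.0517 if WT replicate 3 was and 0.0513 if WT replicate 4 was. H2az2 differed by 0.77 ± 0.58 (SE), Macroh2a1 by 1.21 ± 1.12 (SE), or 0.16 without WT replicate 2, and H2ax, whose product is phosphorylated at DNA breaks and whose transcript also occurs in the stem-loop form, by 0.41 ± 0.52 (SE).

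Genes that make and process histone transcripts were measured for 22 of 24 listed. None passed an adjusted p of 0.05 by limma; 2 were higher at an unadjusted p under 0.05, where 1.99% of all probe sets were. Groups did not overlap for 5 genes, each higher in Ahr-KO, against 2.61% of all probe sets. Slbp stood at 173, 193 and 193 for Ahr-KO and 351, 111, 153 and 49.9 for WT, so the WT arrays enclosed the Ahr-KO values. Npat, the cyclin E target that drives histone transcription, lay above the mark on 1 array. The cap-binding gene Ncbp2 stood at 203, 506 and 559 for Ahr-KO and 42.8, 26.3, 47.4 and 62.6 for WT, so the groups lay apart. It differed by 3.14 ± 0.55 (SE; limma adjusted p = 0.961) and the cleavage factor gene Cpsf2 by 1.52 ± 0.60 (SE; adjusted p = 0.963, unadjusted p = 0.0349). For Cpsf2 the unadjusted limma p ran from 0.0553 to 0.107 on dropping Ahr-KO replicate 1 or 2 or WT replicate 1, 2 or 3, and for Ncbp2 it stayed at 0.00288 or less on dropping any array. Srrt, a partner of the cap-binding complex, differed by -0.84 ± 0.78 (SE), which became -0.14 without Ahr-KO replicate 3, and E2f1 by -0.18 ± 0.55 (SE).

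Histone chaperones escort newly made histones to DNA. Of 21 measured, 12 were higher and 9 lower in Ahr-KO, with a median difference of 0.10. Rbbp7, a subunit of several chromatin complexes, had intensities of 457, 567 and 395 for Ahr-KO and 91.8, 211, 267 and 278 for WT. The groups did not overlap, and the difference was 1.26 ± 0.53 (SE; limma adjusted p = 0.963, unadjusted p = 0.0463). The unadjusted limma p ran from 0.0659 to 0.124 on dropping any Ahr-KO array, WT replicate 1 or WT replicate 2. Hira, the chaperone of the replication-independent H3.3, stood at 3.31, 41.9 and 4.65 against 67.6, 12.2, 797 and 24.3, a difference of -2.69 ± 1.46 (SE). Npm1 and Nap1l1, above the mark on all arrays, differed by 0.10 ± 0.41 (SE) and 0.25 ± 0.41 (SE).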

How the data were processed

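The table deposited by the authors held linear-scale intensities of 41155 probe sets on 7 arrays. The submitters' processing notes name Affymetrix Expression Console. For summarization, background correction, normalization and genome build, the methods were not given in the sources used here. Per the labels' protocols, biotinylated cDNA came from a Nugen WT-Ovation PicoSL kit. Rows were named through the platform annotation: 23521 named 1 symbol, 1814 several, and 15820 none.

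The authors' intensities were transformed here as log2(intensity + 1) and genotype was the only term of a linear model (limma 3.58.1, under R 4.3.3, functions lmFit and eBayes) over 25335 annotated probe sets, with two-sided p-values and Benjamini-Hochberg adjustment. Standard errors (SE) are moderated. Depth has no meaning here; the number of arrays limits precision. The fit was also run on simulated data with independent normal errors of each probe set's own spread. That setting lacks shifts shared by a whole array, and no result here rests on it. Lists are described by counts and medians, without a test. Named were genes without overlap and, per class, the 3 of highest mean level and the 2 of smallest unadjusted p; for other lists, the 2 of smallest p and the 2 of highest level. Other genes are named from the full membership or after their values were seen. The genes, lists and background mark were chosen with earlier results of these data known. Alternatives left out single arrays, or changed the normalization, pseudocount (16), filter, weights, variance prior, replicate block, probe sets or membership.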

Additional observations from a re-analysis of the deposited data

Results flagged for a closer look

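Of 26 genes and 5 level summaries over genes examined in the 4 WT arrays, 1 held an array far from the others, where chance flags about 1 in 20. The mean log2 level of the 6 H2A genes was 6.97 on WT replicate 1 and 5.51 to 5.70 on the other WT arrays, a gap of 0.87 of the whole range. Groups of 3 arrays were not tested. H2ac1, below the background mark on every array, stood at 33.6 on WT replicate 1 and at 7.78, 0.56 and 0.37 on the others. Each of the 6 genes was highest among WT arrays there, but these genes make up the flagged mean and give no separate support. WT replicate 1 was also the highest WT array for the H1 genes (7.40) and the 9 bright histone genes (8.87). The H2B genes were highest among WT arrays on replicate 2 (5.44) and the H4 genes on replicate 3 (6.26). Why WT replicate 1 differed was not tested.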

How the results depend on the processing

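No probe set passed an adjusted p of 0.05 by limma under any alternative run, histone genes included; 1067 probe sets were at an unadjusted p under 0.05. Against 1 histone gene at an unadjusted p under 0.05, there were 2 with a pseudocount of 16 (4.06% of all probe sets), 2 after the filter on dim probe sets, which kept 18 of the 26 genes (5.08% of all), and from 0 to 2 on dropping 1 array (3.77 to 5.29% of all; 0 without Ahr-KO replicate 1 or WT replicate 4, 2 without WT replicate 2). That filter compared the higher of the 2 group means with the median level of 4.61, so it was not blind to genotype. On their means over all arrays H2bc21 (4.08) and H2bc9 (4.58) lay under that level. H2bc21 passed through WT (4.65) and H2bc9 through Ahr-KO (4.88), so the count of 2 is no separate support for H2bc21. After the filter 9 genes were lower in place of 15. Non-overlapping genes numbered 3 to 5 without single arrays (5 without WT replicate 4), while the share of all probe sets rose from 5.74% to between 9.27 and 14.5% (10.2% without WT replicate 4). They numbered 2 after median centring (5.48% of all) or quantile normalization (5.23%). Without single arrays the median over all histone genes ran from -0.23 to -0.06, and those of H1 from -0.56 to 0.13, H2A 0.07 to 0.49, H2B -0.60 to 0.03 and H4 -0.38 to -0.10. The correlations of same-number arrays' deviations were 0.0227, -0.0646 and 0.0101, so no pairing by number was seen. The labels do not say whether same-number arrays share an animal or day, and these correlations cannot settle it. With the replicate block the histone median was -0.1429 and 1 gene, H2bc12, had an unadjusted limma p under 0.05, while H2bc21 had 0.0993 and H2bc14 0.135.

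Of 330 gene differences recomputed, 30 changed sign, in 12 genes. H2ac10 became 0.019 after median centring and 0.021 with array weights, and H4c8 -0.14 with the replicate block and -0.062 with array weights. Mcm6 became -0.027 after quantile normalization and -0.046 with array weights. Ranges without single arrays, for genes whose sign changed, were -0.14 to 0.42 for H1f5, -0.87 to 0.011 for H1f1, -0.78 to 0.30 for H1f3, -0.26 to 0.095 for H2ac10, -0.92 to 0.11 for H2ac21, -0.25 to 0.62 for H2ac12, -0.33 to 0.92 for H2bc3, -0.87 to 1.67 for H2bc9, -0.52 to 0.19 for H2bc22, -0.63 to 0.069 for H2bc1, -0.80 to 1.33 for H4c9, -0.34 to 0.36 for H4c8, -0.44 to 0.13 for E2f1, -0.027 to 0.16 for Npm1 and -0.33 to 0.73 for Mcm6. The causes were not tested. Signal near background limits the dim genes.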
